A study of Mus musculus with 6 samples.

Results

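The genes described here are the replication-dependent histone genes of mouse chromosome 13, often called the Hist1 cluster. Members were the protein-coding genes on chromosome 13 of a GRCm38 gene table whose symbol starts with Hist1h, or with H1f, H2ac, H2bc, H3c or H4c followed by a number. This gave 53 of 21887 protein-coding genes: 6 of the linker histone H1, 13 of H2A, 14 of H2B, 9 of H3 and 11 of H4. They lie in 4 blocks with more than 100 kb between neighbouring blocks. The first block holds 17 members in 118 kb, from H2bc13 to H2ac24, the second 5 members in 8.54 kb, from H2ac12 to H2bc11, the third 29 members in 233 kb, from H4c8 to H1f1, and the fourth only H2bc1 and H2ac1. Each gene was given a window of its body with 1 kb on each side. Deposited peaks in those windows, and those between the genes within 50 kb of a member, merged over the libraries into 89 of the 92757 regions of the series, 38 in gene windows and 51 between genes. The genes were chosen by symbol and position, and the regions were selected on the positions of deposited peaks in any of the 6 libraries, so that each has a peak in at least 1 library. No fold and no difference between the groups entered this rule, but the members were chosen with earlier results of these data known.

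Open chromatin was measured by ATAC-seq, in which the transposase Tn5 inserts sequencing adapters into accessible DNA. The samples were blood monocytes of mice that had all been given diphtheria toxin. The 3 DTR libraries came from thrombocytopenic mice of the genotype PF4cre-iDTR, where Cre under the Pf4 promoter, which is active in megakaryocytes, brings the toxin receptor to these cells and their platelets. The 3 WT libraries came from wild-type mice given the same toxin. No age or strain is given, and the labels do not say whether libraries are separate animals or pools. The p-values therefore compare these libraries only and need not carry over to animals. Each library has its own list of broad peaks without read counts, so its depth is unknown. A fold here is the authors' enrichment of a peak over the background of their peak caller. Since the scaling of folds between lists is not stated, they are described and not tested.

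Replication-dependent histone genes are short, mostly without introns, and present in many copies, so that a dividing cell can make enough histone to package its new DNA. Their mRNAs end in a stem-loop in place of a poly(A) tail, are bound by the stem-loop binding protein Slbp, and are made in S phase at histone locus bodies with the coactivator Npat. H2A pairs with H2B and H3 pairs with H4 to form the core of the nucleosome, and H1 binds the linker DNA between cores. Blood monocytes are largely non-dividing cells. A few members belong to the male germ line: H1f6 encodes the testis linker histone H1t, and H2ac1 and H2bc1 encode the testis types TH2A and TH2B.

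Promoter sequences of members at both ends of the range of accessibility are printed here, 5′ to 3′ on the gene's strand, from the RefSeq promoter table of GRCm38.p6. Each runs from 250 bases before to 50 bases after the annotated start, and the table matched 50 of the 53 members. The first pair are H1 genes, 1 with a wide peak in every library and 1 whose start lay in no peak, with the AC box AAACACA in capitals. H1f4 lies at chr13:23622509-23622808 (minus strand) and H1f6, the testis gene, at chr13:23695561-23695860 (plus strand).
H1f4: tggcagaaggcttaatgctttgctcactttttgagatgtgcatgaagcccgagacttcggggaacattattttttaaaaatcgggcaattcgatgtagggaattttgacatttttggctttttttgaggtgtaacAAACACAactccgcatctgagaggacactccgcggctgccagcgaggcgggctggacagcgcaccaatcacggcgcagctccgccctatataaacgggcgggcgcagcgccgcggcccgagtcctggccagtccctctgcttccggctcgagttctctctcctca
H1f6: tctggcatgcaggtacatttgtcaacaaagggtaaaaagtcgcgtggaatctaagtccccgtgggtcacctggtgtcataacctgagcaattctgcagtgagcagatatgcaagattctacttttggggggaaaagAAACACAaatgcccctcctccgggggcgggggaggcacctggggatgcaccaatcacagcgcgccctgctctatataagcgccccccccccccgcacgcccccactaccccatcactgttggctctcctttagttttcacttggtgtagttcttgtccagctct

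The second pair are H2B genes that both carry the octamer ATTTGCAT, given in capitals, and differ in accessibility. H2bc12 lies at chr13:22035571-22035870 (plus strand) under a strong peak, and the testis gene H2bc1 at chr13:23934107-23934406 (minus strand) in no peak.
H2bc12: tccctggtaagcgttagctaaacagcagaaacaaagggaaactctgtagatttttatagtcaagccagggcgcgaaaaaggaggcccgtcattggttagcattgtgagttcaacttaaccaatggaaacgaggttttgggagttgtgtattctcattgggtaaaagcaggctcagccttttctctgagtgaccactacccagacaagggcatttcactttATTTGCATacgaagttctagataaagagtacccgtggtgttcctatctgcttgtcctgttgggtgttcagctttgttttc
H2bc1: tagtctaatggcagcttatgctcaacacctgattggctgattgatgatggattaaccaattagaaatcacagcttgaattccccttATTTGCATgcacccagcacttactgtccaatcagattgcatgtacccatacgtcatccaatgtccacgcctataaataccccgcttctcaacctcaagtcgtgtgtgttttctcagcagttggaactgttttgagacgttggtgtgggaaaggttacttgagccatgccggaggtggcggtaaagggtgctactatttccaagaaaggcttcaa

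The last set belongs to a stretch of repeated DNA where 3 histone genes had starts in no peak. H2bc23 lies at chr13:21810150-21810449 (minus strand), and capitals mark CCAAT on either strand. H4c17 at chr13:21811496-21811795 (plus strand) and H4c18 at chr13:21832148-21832447 (minus strand) are near-copies of each other, and the capital marks the only base that differs between them where they align.
H2bc23: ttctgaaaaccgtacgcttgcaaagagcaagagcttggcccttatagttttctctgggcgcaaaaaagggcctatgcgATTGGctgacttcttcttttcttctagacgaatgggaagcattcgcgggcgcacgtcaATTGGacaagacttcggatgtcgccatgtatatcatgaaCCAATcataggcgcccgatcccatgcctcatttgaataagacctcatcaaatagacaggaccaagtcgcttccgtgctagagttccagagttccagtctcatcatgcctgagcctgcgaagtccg
H4c17: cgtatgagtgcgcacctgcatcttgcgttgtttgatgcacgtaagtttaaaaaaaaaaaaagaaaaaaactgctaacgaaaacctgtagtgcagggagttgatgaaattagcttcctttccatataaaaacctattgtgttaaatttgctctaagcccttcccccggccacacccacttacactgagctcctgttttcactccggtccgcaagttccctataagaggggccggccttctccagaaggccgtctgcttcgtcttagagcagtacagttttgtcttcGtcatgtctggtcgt
H4c18: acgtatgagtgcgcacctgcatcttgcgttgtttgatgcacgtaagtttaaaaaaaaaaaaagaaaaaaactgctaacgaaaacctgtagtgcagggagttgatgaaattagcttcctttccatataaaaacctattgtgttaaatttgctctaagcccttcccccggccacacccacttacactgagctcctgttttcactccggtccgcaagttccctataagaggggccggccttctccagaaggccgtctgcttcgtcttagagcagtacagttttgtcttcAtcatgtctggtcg

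The histone genes were open in monocytes of both groups. A peak fell in the window of 50 of 53 members (94.3%) in all 6 libraries, against 68.7% of all protein-coding genes. The other 3 members, H2bc23, H2bc1 and H2ac1, had a peak in 0 libraries (5.66%, against 28.0% of all genes), and no member had one in only some libraries. By class, every H1, H3 and H4 gene had a peak in all libraries, as did 12 of 13 H2A genes and 12 of 14 H2B genes. The annotated start itself lay inside a peak in all libraries for 44 of the 50 members with a promoter entry (88.0%), against 54.2% of the genes of that table. It lay in no peak in any library for the other 6, which were H2bc23, H2ac23, H2ac24, H1f6, H2bc1 and H2ac1. All 11 H4 starts and the 7 H3 starts with an entry were inside a peak, against 11 of 13 for H2B, 10 of 13 for H2A and 5 of 6 for H1.

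Folds differed more between members than between libraries. The median of the members' highest fold was 5.99, and by class it was 6.95 for H2B, 6.83 for H2A, 5.46 for H4, 5.24 for H1 and 4.79 for H3. These are the highest folds in the window, which for some genes come from a neighbour's peak. Within a class the members spread widely, from 2.88 to 12.4 for H4. For H2A the values of 2.54 at H2ac10 and 12.4 at H2ac23 both come from neighbours' peaks, and the peaks over H2A starts had medians from 2.38 at H2ac10 to 10.82 at H2ac12. Genes outside the naming rule, chosen after their values were seen, show the ends of this range. The start of H4c17 lay in a peak with folds of 12.81, 11.66 and 12.67 in DTR libraries 1 to 3 and of 12.55, 9.78 and 12.27 in WT libraries 1 to 3. WT library 2 was the lowest, the other values overlapped between the groups, and the peak stood above 91.8% to 99.2% of all peaks of its library. The peak over the start of H2ac10 had folds of 2.46, 2.18 and 2.39 in the DTR and 2.45, 2.19 and 2.37 in the WT libraries, above only 1.67% to 4.69% of the peaks. Library 2 was the lowest of each group there, and the groups overlapped.

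**Figure D1:**
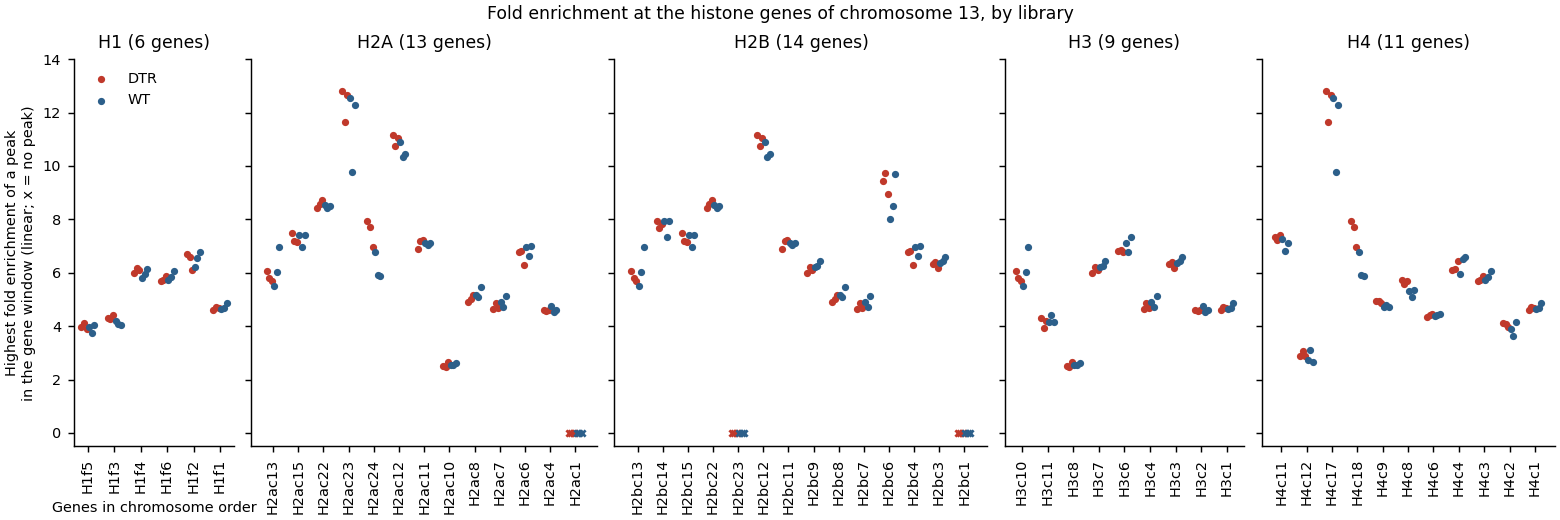
Highest fold enrichment of a deposited peak in the window of each histone gene (linear axis, authors' fold), 1 point per library, DTR in red and WT in blue, genes in chromosome order within each class, with crosses at 0 for genes without a peak. Points of a gene lie close together while genes range from 2.54 to 12.4 in median fold; neighbouring genes under 1 peak share its values, the folds plotted for H2ac23, H2ac24 and H1f6 are those of a neighbour's peak that only reaches into their windows, and those for H2ac10, H3c4 and H1f1 come from a neighbour's stronger peak.

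The extent of the peaks differed between the histone classes. Most H4 and H1 genes were covered from end to end, with a median of 100% of the gene body under a peak in each class. The median was 84.0% for H2A, 79.5% for H2B and 49.3% for H3. At least 90% of the body was covered in 10 of 11 H4, 4 of 6 H1, 6 of 13 H2A, 3 of 14 H2B and 2 of 9 H3 genes. Among members of at most 1000 bp this held for 25 of 49 (51.0%), against 17 of 1528 other protein-coding genes of that length (1.11%). The 2 sets also differed in how often a peak lay on the body at all. It did so in all libraries for 44 of the 49 members and for 55 of the 1528 others.

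Seen from the start, H1 peaks reached a median of 114 bp upstream and 1495 bp downstream, past the end of genes with a median length of 760.5 bp. The 5 H1 starts in a peak ranged from 255 bp downstream at H1f1 to 1763 bp at H1f4. For H3 the medians were 1048 bp upstream and 225 bp downstream over 7 starts, for a median gene length of 496 bp, but the genes differed. H3c10, H3c3 and H3c2, which share their peak with another gene's start, reached 1648, 1639 and 1372 bp upstream, while H3c11 and H3c4 reached only 147 and 123 bp upstream and 326 and 280 bp downstream. H2A and H2B peaks reached 620.5 and 720.5 bp upstream and 463 and 425.5 bp downstream. H4 peaks reached 209 bp upstream and 538 bp downstream, for a median gene length of 406 bp. Among starts in the promoter table, classes differed in how often a peak was shared with another member's start: 8 of 10 H2A, 9 of 11 H2B and 3 of 7 H3 starts in a peak shared it, against 1 of 5 for H1 and 0 of 11 for H4. The counts miss H3c1, H3c7 and H2bc4, which have no entry there and lie under the peaks over the starts of H4c1, H2bc9 and H2ac6. No test was made between classes, because members under 1 peak are not independent.

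**Figure D2:**
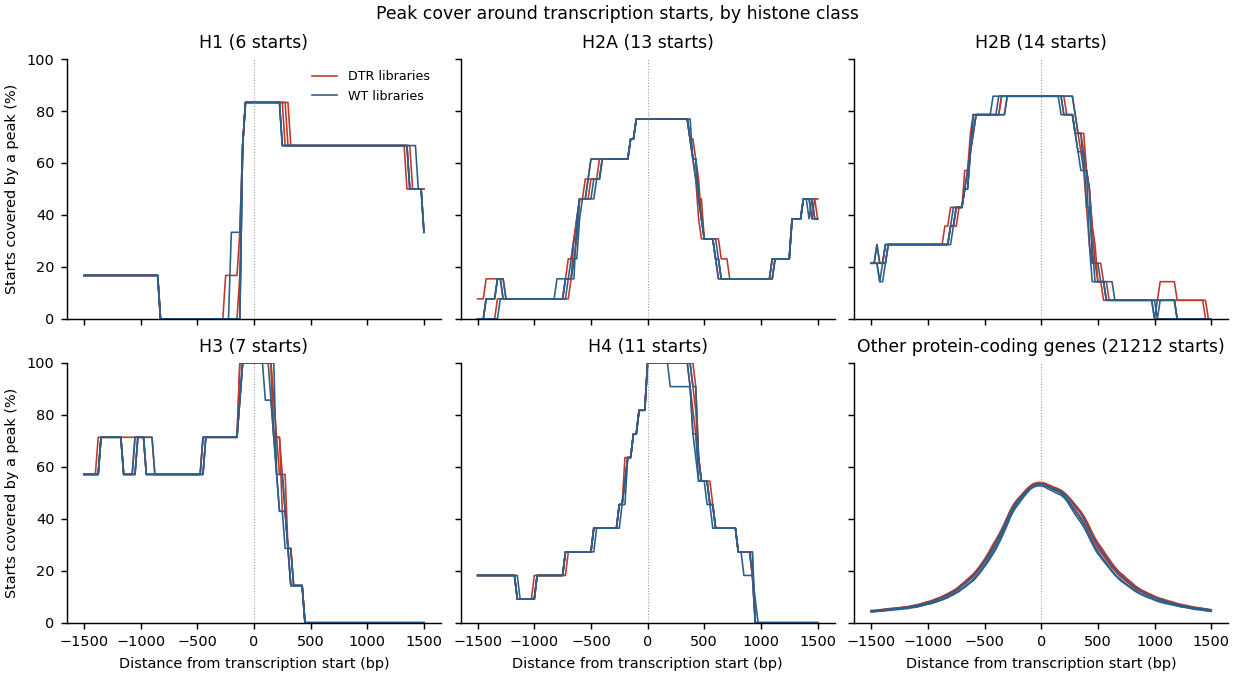
Percent of annotated starts covered by a peak at each distance from the start (bp, negative upstream), 1 line per library, for the members of each class and for other protein-coding genes. H1 cover lies mostly downstream and H4 cover over the start and body, most H3 starts have cover upstream, and the DTR and WT lines run nearly on top of each other.

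Among the H1 genes, which encode linker histones, H1f4 was covered most, with 1867, 1862 and 1901 bp of its window under a peak in the DTR and 1994, 1861 and 1881 bp in the WT libraries. The groups overlapped, and WT library 1 was the highest. H1f3 had a median of 1651 bp and H1f5 one of 1583 bp, both with the whole body covered. H1f1 had the least cover of the somatic H1 genes, with 622, 553 and 561 bp in the DTR and 520, 509 and 530 bp in the WT libraries. Every DTR library was above every WT library there (578.7 ± 37.7 against 519.7 ± 10.5 bp, SD, n = 3), and the peak over the H1f1 start was weak, at folds of 2.58 to 2.89. H1f6, the testis gene, had only 25 to 34 bp in its window, the edge of the peak over H4c3, and 0% of its body was covered. Its start was 1701 bp from the nearest peak edge in all DTR libraries and in WT library 2, and 1710 bp in WT libraries 1 and 3.

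H2A and H2B genes, whose proteins form a dimer, often lie head to head. Among starts in the promoter table, 9 pairs of members had starts at most 1000 bp apart on opposite strands. All 9 joined an H2A to an H2B gene, at distances of 164 to 281 bp. Pairs with H2bc4, H3c1 or H3c7, which have no entry there, could not be counted. In 7 pairs a single peak spanned both starts in all 6 libraries, and in the other 2, H2bc23 with H2ac23 and H2bc1 with H2ac1, neither start was in a peak in any library. The pair H2ac12 and H2bc12, named after its values were seen, had the strongest shared peak, with folds of 11.15, 10.74 and 11.04 in the DTR and 10.9, 10.32 and 10.44 in the WT libraries. Those groups overlapped, as DTR library 2 was below WT library 1. The weakest shared peak, over H2bc7 and H2ac7, had folds of 4.63, 4.87 and 4.69 in the DTR and 4.92, 4.71 and 5.12 in the WT libraries, again with overlap.

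The H2A genes with the longest cover were H2ac13, with a median of 1875 bp, H2ac4 with 1586 bp and H2ac6 with 1475.5 bp. H2ac13 shares its peak with the starts of H2bc13 and H3c10, the only region that held 3 member starts. H2ac4 was covered by 1609, 1603 and 1629 bp in the DTR and 1548, 1569 and 1557 bp in the WT libraries. Every DTR library was above every WT library (1614 ± 13.6 against 1558 ± 10.5 bp, SD, n = 3), while its folds of 4.53 to 4.76 overlapped between the groups. At the low end, H2ac24 had 186 bp in every library and H2ac1 had 0.

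Among H2B genes, H2bc6 had the longest cover with a median of 3334 bp, but its annotated body is long and its window of 39455 bp also takes in the peak over H1f4. That peak also covers an annotated start of H2bc6 itself. The cover of H2bc6 was 3758, 3657 and 3353 bp in the DTR and 3182, 3315 and 2943 bp in the WT libraries, so every DTR library was above every WT library (3589 ± 211 against 3147 ± 189 bp, SD, n = 3). A weaker peak inside this window, at chr13:23593172-23593460, was absent from WT library 3 alone. H2bc22, also with a long annotated body, was covered by 1018, 1222 and 1023 bp in the DTR and 1010, 983 and 1015 bp in the WT libraries. DTR library 2 stood apart there because of a peak found in no other library, at chr13:21792333-21792548 with a fold of 1.98, and the DTR libraries 1 and 3 exceeded WT library 3 by only a few bp. H2bc4 had a median cover of 1807 bp and H2bc3 of 1427 bp. H2bc23 and H2bc1 had 0 bp in every library.

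H3 genes encode the histone that carries many of the regulated lysine marks of chromatin. H3c1 had the longest cover, a median of 1944 bp with its whole body under a peak, followed by H3c7 with 1832.5 bp and H3c6 with 1449 bp. H3c6 was covered over 49.3% of its body, and its peak ended 448 bp downstream of the start. H3c2 was covered by 1277, 1231 and 1275 bp in the DTR and 1180, 1196 and 1185 bp in the WT libraries, with every DTR library above every WT library (1261 ± 26.0 against 1187 ± 8.19 bp, SD, n = 3). H3c2 lies under the same peak as H2ac4, so these 2 genes are not separate observations. The shortest covers were 472.5 bp at H3c11 and 451 bp at H3c4, as medians.

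H4 genes, whose protein pairs with H3, each had a start in a peak that covered no other member start of the promoter table. The peak over the H4c1 start also covered the whole body of H3c1, which has no entry there, and reached into the window of H1f1. H4c11 had the longest cover, a median of 1575.5 bp, followed by H4c8 with 1530.5 bp and H4c1 with 1415.5 bp. H4c12 was covered by 673, 625 and 700 bp in the DTR and 710, 457 and 640 bp in the WT libraries, with folds of 2.65 to 3.09. WT library 2 was the lowest in length but had the highest fold, and the groups overlapped in both. H4c2 had the shortest cover, with 490, 516 and 517 bp in the DTR and 485, 473 and 440 bp in the WT libraries. Every DTR library was above every WT library (507.7 ± 15.3 against 466 ± 23.3 bp, SD, n = 3), and the nearest libraries had 490 and 485 bp.

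The closed members, meaning here those whose start lay in no peak of any library, lay in 3 places. H1f6 was the only one in the third block, among open members. H2bc1 and H2ac1, the fourth block, had starts at 19929 to 20272 bp from the nearest peak edge in the 6 libraries, and with H1f6 these are the testis genes. The other 3 lay in a repeated stretch at the end of the first block. Of the 50-base words of a promoter, 100% for H2bc23, 86.9% for H2ac23 and 73.3% for H2ac24 also occurred in another promoter of the table, as did 94.0% for both H4c17 and H4c18 and 11.6% for both H4c11 and H4c12. The share was 0% for all other members with an entry. The promoters of H4c17 and H4c18, printed in the last set, were identical in 99.7% of 299 aligned bases. The difference was G286A, with H4c17's base first and positions counted from 1 at the 5′ end of its promoter, 35 bases after its start. The peak edge stood 13 bp upstream of the H4c17 start and 12 bp upstream of the H4c18 start in all 6 libraries, and the windows of H2ac23 and H2ac24 were both covered by exactly 186 bp in each. How reads that map to several places were treated is not given in the sources used here, so the values of these 5 genes, and the missing peaks among them, are uncertain.

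The promoters of the members carried the elements known from histone genes, also where no peak was called. Each motif was searched on both strands of the 51 member promoters (H2bc6 has 2) and of all 32851 promoters of the same 300 bases. Promoters of a head-to-head pair overlap, so 1 match can count for both genes. CCAAT, the site of the factor NF-Y, was in 43 member promoters (84.3%, against 37.4% of all), which were all those of H1, H2A, H2B and H3 and 3 of 11 of H4. TATAAA, the core of the TATA box, was in 31 (60.8%, against 13.6%). The octamer ATTTGCAT was in 11 (21.6%, against 1.74%), of which 5 were H2A and 6 H2B promoters, those of the closed pair H2bc1 and H2ac1 among them. The AC box AAACACA was in 9 (17.6%, against 7.18%), which included 5 of the 6 H1 promoters, H1f6 among them and H1f1 not. The GC box GGGCGG was in 19 (37.3%, against 35.7%), 8 of them H4. The E2F words were rare: TTTCCCGC was in 1 promoter, that of H4c1 (1.96%, against 1.07%), and TTTGGCGC in 0 (against 0.514% of all). The median GC content was 45.0% in member promoters and 52.7% over all promoters, with a CpG observed over expected ratio of 0.746 against 0.384. It was 44.3% for the 45 member promoters with a start in a peak and 49.8% for the 6 others, with CpG ratios of 0.746 and 0.721.

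DTR and WT libraries differed little at the histone genes, and the differences were near those of all genes or regions. Cover was longer in every DTR than in every WT library for 6 members (11.3%, against 12.6% of all genes), which were H1f1, H2ac4, H3c2, H4c2, H2bc6 and H2bc22, and shorter for 0 (against 0.708%). The count was 14 without DTR library 2 and 16 without WT library 1, against 22.4% and 26.6% of all genes in the same settings. The median log2 ratio of cover, DTR over WT, was 0.013 over the 50 members with a peak in all libraries and 0.06 over all 15041 such genes. The members ranged from −0.03 to 0.28. By class, the H2B windows summed to 17.64, 17.49 and 17.71 kb in the DTR and 17.24, 16.93 and 16.47 kb in the WT libraries, without overlap (17.6 ± 0.111 against 16.9 ± 0.388 kb, SD, n = 3, exact permutation test, two-sided, p = 0.1, adjusted p = 0.25 over the 5 classes). The smallest p that 3 against 3 libraries can give is 0.1. H2bc6 holds much of that class difference, as its values above show. The sums of the other classes overlapped between the groups. They were 7.26 ± 0.116 against 7.22 ± 0.166 kb for H1, 13.4 ± 0.221 against 13.2 ± 0.192 kb for H2A, 10.5 ± 0.0686 against 10.3 ± 0.103 kb for H3 and 11.0 ± 0.0752 against 10.8 ± 0.195 kb for H4. The exact permutation test, two-sided, gave p = 0.6 for H1 and p = 0.2 for each of H2A, H3 and H4, with adjusted p of 0.6 and 0.25.

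Over the whole cluster, the DTR lists held 82, 84 and 82 peaks and the WT lists 80, 81 and 80 (82.67 ± 1.15 against 80.33 ± 0.577, SD, n = 3, exact permutation test, two-sided, p = 0.1). They covered 73.9, 73.0 and 72.8 kb in the DTR and 71.5, 68.8 and 68.5 kb in the WT libraries (73.23 ± 0.586 against 69.6 ± 1.65 kb, SD, n = 3, p = 0.1 in the same exact permutation test). Every DTR library was above every WT library in both measures. The lists as a whole moved the same way, with 81567 to 84029 peaks in the DTR and 77867 to 80475 in the WT libraries. Taken as a share of the length covered by all peaks of the library, the cluster made up 0.1476%, 0.1516% and 0.1454% in the DTR and 0.1501%, 0.1569% and 0.1474% in the WT libraries. These shares overlapped, with the DTR mean lower (0.1482 ± 0.00314% against 0.1515 ± 0.0049%, SD, n = 3, exact permutation test, two-sided, p = 0.5). With every list shortened to the same number of peaks, the sign of the difference in peak number turned, to −2.0 (exact permutation test, p = 0.4).

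**Figure D3:**
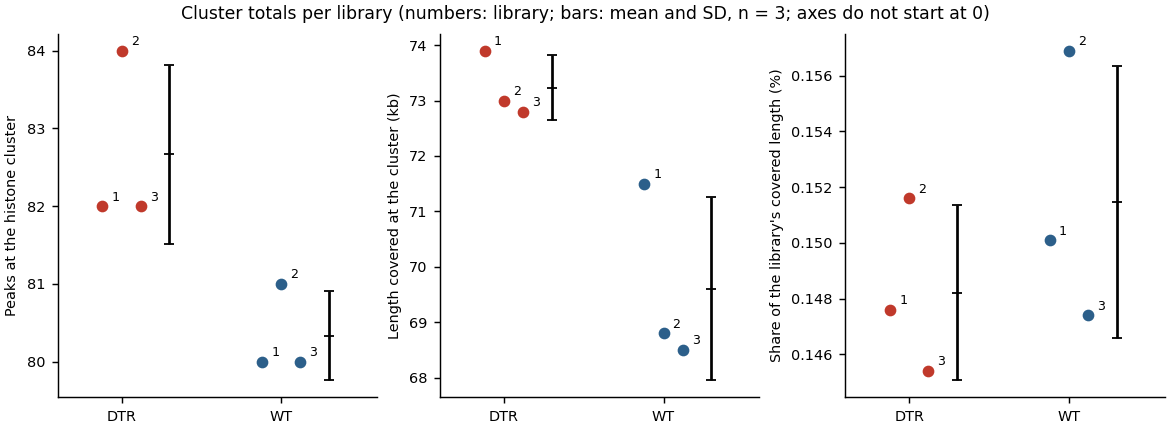
Peaks at the histone cluster, length they covered (kb) and that length as a percent of the library's covered length, 1 numbered point per library with the mean and SD of each group of 3 beside it; axes do not start at 0. Every DTR library is above every WT library in number (82 to 84 against 80 to 81) and length, and the groups overlap in the share.

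Of the 89 regions, 72 (80.9%) had a peak in all 6 libraries, against 74.1% of all regions. The share was 92.1% in gene windows (35 of 38) and 72.5% between genes (37 of 51). No window region belonged to 1 group. Between genes, 2 regions (2.25% of the 89, against 0.82% of all regions) had a peak in every DTR and no WT library, and 0 had the reverse (against 0.0992%). The first, at chr13:21850893-21851487, lay 17417 bp from the nearest member with folds of 2.46, 2.44 and 2.08 in the DTR libraries. The second, at chr13:21877571-21877724 over the predicted gene Gm11278, lay 44095 bp away with folds of 3.34, 3.6 and 3.37. Both were weak: their −log10 q was 2.89, 2.43 and 1.47 for the first and 4.98, 5.71 and 5.4 for the second. The count was 0 with peaks at a q of at most 1e-05 (against 0.98% of all regions) and 1 with lists of equal length (against 0.552%).

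Among the 72 shared regions, the fold was higher in every DTR library at 7 (9.72%, against 10.4% of all shared regions) and lower at 3 (4.17%, against 5.15%). The median ratio of mean folds, DTR over WT, was 1.0 at the cluster and 1.01 over the genome, with a range of 0.911 to 1.22. The largest ratio, 1.22, was at chr13:21831263-21832209 over the start of H4c18 in the repeated stretch. Its folds were 7.93, 7.72 and 6.95 in the DTR and 6.77, 5.9 and 5.86 in the WT libraries, and the lowest DTR value was close above the highest WT value. The near-copy H4c17, with the values given above, overlapped between the groups.

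The other window regions with a higher fold in every DTR library had small ratios. H4c8, at chr13:23530309-23531840, had folds of 5.71, 5.59 and 5.69 against 5.31, 5.08 and 5.34 (ratio 1.08). H1f1, at chr13:23763530-23763991, had 2.76, 2.89 and 2.75 against 2.58, 2.66 and 2.68 (ratio 1.06). H1f3, at chr13:23554923-23556577, had 4.32, 4.26 and 4.43 against 4.19, 4.09 and 4.06 (ratio 1.05). H4c9, at chr13:22040803-22041506, had 4.96, 4.96 and 4.85 against 4.73, 4.81 and 4.73 (ratio 1.03). H1f1 was the only member that separated the groups both in cover and in the fold over its start.

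Between the genes, the higher regions lay at the butyrophilin gene Btn2a2 (chr13:23483085-23483460), with folds of 4.97, 5.91 and 5.19 against 4.49, 4.56 and 4.62 (ratio 1.17), and at the phosphate transporter gene Slc17a4. The latter, at chr13:23911309-23911653, had 8.99, 9.1 and 8.71 against 7.83, 8.0 and 8.55 (ratio 1.1). A region over the tRNA genes n-TRacg4 and n-TSaga7 had a ratio of 1.14 with overlapping groups. Another region at Slc17a4, chr13:23913892-23914227, had a ratio of 1.09, also with overlapping groups. The lower regions were smaller in ratio. At H2bc9 and H3c7 (chr13:23542956-23544905) folds were 5.98, 6.21 and 6.12 in the DTR and 6.21, 6.25 and 6.45 in the WT libraries (ratio 0.969), and DTR library 2 met WT library 1 at 6.21 to the digits printed. At the start of H3c4 (chr13:23575637-23576053) they were 3.45, 3.35 and 3.14 against 3.45, 3.53 and 3.53 (ratio 0.946), with the highest DTR and lowest WT values equal to the same digits. At chr13:23711549-23712287, between genes, they were 2.29, 2.39 and 2.24 against 2.48, 2.65 and 2.44 (ratio 0.915). The lowest ratios were 0.911 over the tRNA gene n-TVaac3, 0.914 at chr13:23724854-23725669, 0.915 at the region just given, 0.916 at the H2bc6 region chr13:23584506-23586397 and 0.919 at Hfe, the haemochromatosis gene. Without WT library 1 the count was 12 higher and 9 lower regions. It was 11 higher without DTR library 1, DTR library 2 or WT library 3, and 8, 9 and 11 lower without DTR library 2, DTR library 3 and WT library 2. Over all shared regions the share of lower ones was 14.8% without WT library 1, and 10.7%, 7.5% and 8.58% in those last 3 settings. The share of higher ones was 16.3% without WT library 1. It was 15.7%, 15.1% and 18.1% without DTR library 1, DTR library 2 and WT library 3. With folds divided by the median of each library, 5 regions were higher and 10 lower, against 6.78% and 11.2% of all shared regions.

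**Figure D4:**
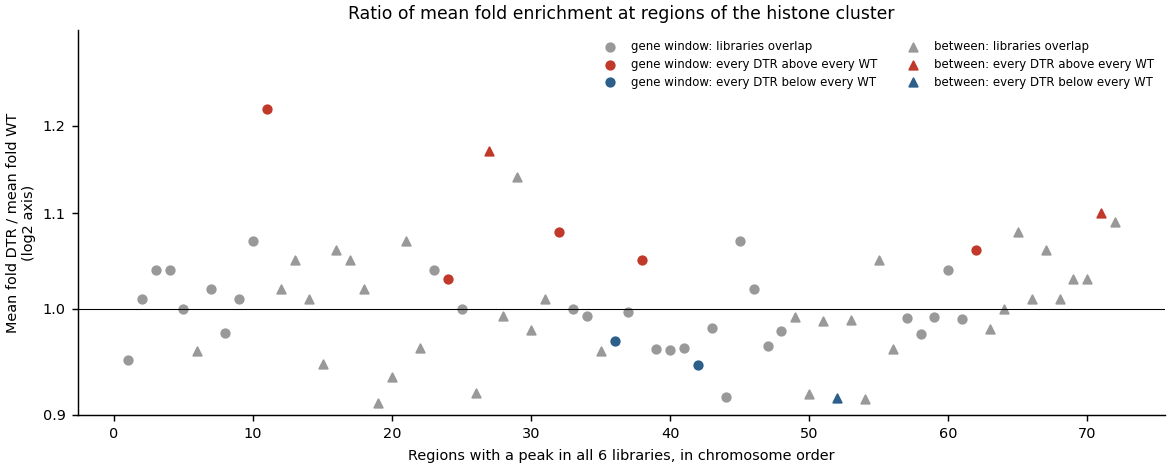
Ratio of the mean fold of the 3 DTR over that of the 3 WT libraries (log2 axis) for the 72 regions with a peak in all libraries, in chromosome order, circles in gene windows and triangles between genes, coloured where the groups do not overlap. Most points lie close to 1, with 7 higher and 3 lower regions coloured and the region of H4c18 at the top with 1.22.

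Regions on both sides of the distance limit of 50 kb had a peak in all libraries, with unlike folds. Just inside lay a region at 47713 bp, with folds of 8.54 to 9.72, and one at 48390 bp, with 4.03 to 4.86. Just outside lay a region at 50897 bp, with 2.68 to 2.95, and one at 51642 bp, with 10.8 to 11.27.

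Genes of histone expression elsewhere in the genome were open as well. The list held the other histone genes and genes of histone transcription, mRNA processing and histone chaperones, of which 45 matched the gene table. All 45 had a peak in every library, against 68.7% of all genes. Cover was longer in every DTR library for 7 of them (15.6%, against 12.6% of all genes) and shorter for 0 (against 0.708%). These were the histone genes H2ac21, H3c13 and H2aw, the S-phase kinase Cdk2, its cyclin Ccne2, the transcription factor E2f1 and the H3.3 chaperone Daxx. E2f1 was covered by 2156, 2213 and 2262 bp in the DTR and 2065, 1995 and 2029 bp in the WT libraries, and Cdk2 by 1192, 1532 and 1188 against 1141, 1037 and 944 bp. Neither gene overlapped between the groups. Npat, with 922, 913 and 949 against 930, 888 and 911 bp, and Slbp, with 1256, 1342 and 1395 against 1308, 1281 and 1253 bp, both overlapped.

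Markers of cell types were read in the same windows. All 10 monocyte markers had a peak in every library, as did 5 of 5 B cell, 3 of 6 T and NK cell, 2 of 5 neutrophil, 3 of 5 erythroid, 4 of 5 megakaryocyte and platelet and 5 of 5 cycling cell markers. Cd8a, Ncr1, Elane, Hba-a1 and Ppbp, each a defining marker of another cell type, had no peak in any library. Over all protein-coding genes, the share with a peak in every library was 68.7%. Cover was longer in every DTR library for 7 of the 41 markers (against 12.6% of all genes) and shorter for 0 (against 0.708%). Among those longer in every DTR library were the monocyte genes Fcgr1 and Nr4a1, and Klrb1c, S100a8, Klf1 and Gata1, the last with 173, 147 and 216 bp in the DTR and 0 bp in each WT library. Summed over a list, the cover was 36.42 to 37.64 kb in the DTR and 32.08 to 36.0 kb in the WT libraries for monocytes, 4.66 to 4.9 against 3.91 to 4.53 kb for B cells, 2.59 to 2.74 against 2.29 to 2.52 kb for erythroid cells, and 4.3 to 4.46 against 3.92 to 4.27 kb for megakaryocytes and platelets. The groups did not overlap in these 4 lists. They overlapped for T and NK cells (2.3 to 2.45 against 2.38 to 2.55 kb), neutrophils (3.77 to 4.9 against 3.85 to 4.14 kb) and cycling cells (7.92 to 8.9 against 7.48 to 8.29 kb), and no single cycling marker separated the groups. The length covered by all peaks of a library also separated the groups. It was 50.1, 48.1 and 50.1 Mb in the DTR and 47.7, 43.8 and 46.4 Mb in the WT libraries. The list sums were not scaled to that length. The part of other cell types in the values at the histone genes was not tested.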

How the data were processed

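The submitters' processing notes name the tools fastp, Bowtie, MACS2 and version 2.4.4 of Bowtie2. Not given in the sources used here are their settings, a read shift for the Tn5 offset, the handling of reads that map to several places, and the genome build. The authors called peaks in each library by itself and deposited 6 lists of broad peaks. For a peak, the deposited columns hold a score, a fold enrichment over background, which is a ratio, and a p-value and q-value as −log10. In the deposited lists the score was 10 times the −log10 q, within 1 and for 100% of the peaks, and the smallest −log10 q was 1.01 to 1.03. Only the title of the series names histone modifications. Its samples and protocols are those of ATAC-seq, and the lists were taken as such.

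From these lists, overlapping or adjoining peaks of the 6 libraries were joined into regions. A library had a region when it had a peak there, and its highest fold was taken. Cover is the number of base pairs of a gene window under a peak. Genes, starts and promoters came from RefSeq tables of GRCm38, matched by symbol, whose coordinates are printed only for promoters. On chromosome 13, 60.0% of 843 starts lay in a peak of all libraries, against 1.66% and 2.61% after moving them by 5 and 20 kb, so the files were read as this build. An exact permutation test, two-sided, compared the values per library, with Benjamini-Hochberg adjustment over the 5 classes. Counts were set beside their share over all genes or regions. The scripts recovered seeded regions in simulated lists, which were DTR-only or had a doubled fold. Fold differences as small as those at the cluster were not simulated, and the recovery of seeded wider regions was not counted. Python 3.11.15, numpy 2.4.6, pandas 2.3.3 and scipy 1.17.1 were used.

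The members and lists were chosen with earlier results of these data known. The naming rule took, per class, the 3 members with the longest and the 2 with the shortest median cover, the members without a peak, those whose cover separated the groups and the testis genes. It also took the 5 regions with the highest and the 5 with the lowest ratio of folds, and regions of 1 group only. Regions whose folds separated the groups were named as well, outside this rule. Alternatives were a stricter q, lists of equal length, other windows, overlaps and joining, each library left out and a replicate block. The 2 symbols marked as pseudogenes, H2ac14 and H2ac5-ps, were left out by the rule. 1 of the cell markers is not reported here.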

Additional observations from a re-analysis of the deposited data

How the results depend on the processing

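Of 132 values under 14 alternative settings, 111 stayed, 20 counts moved and 1 difference reversed. A count stayed when it was within 1.5 times the reported one. A tested difference stayed when it kept its sign. Its p could not fall below 0.1 in any setting (exact permutation or sign-flip test), so the side of 0.05 on which it lay was fixed. The reversed value was the difference in peaks at the cluster, DTR minus WT, which was −2.0 with lists of equal length against 2.33 as reported. The 50 members with a peak in all libraries stayed 50 with each library left out, and were 47 with no extension of the gene body and 51 with one of 2.5 kb. Regions of the DTR group only were 0 at a q of at most 1e-05 and 1 with lists of equal length. They numbered 2 to 3 with a library left out, against 1.22% to 1.57% of all regions. The difference in covered length was 1610 bp with lists of equal length and 2760 bp at the stricter q, against 3650 bp, and 3080 to 4620 bp with a library left out.

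With a library left out, the difference in peaks ranged from 1.67 to 2.67 and that in the covered share from −0.0053 to −0.00058 percentage points. Regions of the WT group only ranged from 0 to 1, higher regions from 10 to 12, lower regions from 3 to 11, members covered more from 7 to 16 and members covered less from 0 to 1. Fewer libraries have to be separated in these settings, and the share over all genes or regions rose with them. It was 15.1% to 18.1% for higher and 7.44% to 14.8% for lower regions, and 0.191% to 0.32% for regions of the WT group only. Among all genes it was 14.7% to 26.6% for longer and 1.22% to 2.9% for shorter cover. With folds divided by the median of each library, chosen after seeing the data, lower regions numbered 10. In fold, DTR and WT libraries of the same number did not deviate together over regions, with correlations of 0.00251, 0.0736 and −0.0316. The numbers were not taken as pairs. Pairing in cover was not tested. Library 2 had the shortest total cover of each group, 48.1 Mb in the DTR and 43.8 Mb in the WT group. It also had the lowest sums of each group for H1, H2A, H3 and H4. A replicate block gave 13 higher and 13 lower regions (19.8% and 11.8% of all shared regions), 15 members covered more and 1 covered less (24.6% and 2.11% of all genes). For the values per library the exact sign-flip test of the block gave p = 0.25, the smallest it can give. Depth is unknown, so a missing peak does not show that a region was closed.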

Other observations

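The DNA between the first and the last histone gene also held 51 other protein-coding genes, which were open or closed by family. All 36 vomeronasal receptor genes (Vmn1r), which are expressed in sensory neurons of the vomeronasal organ, had a peak in 0 libraries. Both butyrophilin genes, Btn1a1 and Btn2a2, and both zinc finger genes, Zfp184 and Zfp322a, had a peak in all 6 libraries, as did 3 of 4 phosphate transporter genes, with Slc17a3 closed. Of the 7 others, 5 had a peak in all libraries, and the histone gene H4bc24 and Gm11295 in none. Hfe, which encodes a regulator of iron uptake, was covered by 2733, 2769 and 2838 bp in the DTR and 2727, 2185 and 2209 bp in the WT libraries. Its groups did not overlap, although DTR library 1 and WT library 1 were nearly equal.

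The histone genes are interspersed with tRNA genes, which RNA polymerase III transcribes. Between the members within 50 kb lay 28 tRNA genes, of which 19 (67.9%) were under a peak in all libraries and 4 in none, against 203 of 408 (49.8%) over all chromosomes. Of the regions between genes with a peak in all libraries, 10 lay over tRNA genes, with a median width of 1224.5 bp and a median fold of 5.29. The 16 regions over other genes were narrower, with a median width of 575.5 bp and a median fold of 4.67, and the 11 over no gene of the table had 622 bp and 5.37. No test was made of these differences, since the regions share their libraries.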
